A study of Mus musculus with 6 samples.

Results

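Histone deacetylases and sirtuins are the enzymes that remove acetyl groups from lysines, the opposite reaction to that of the acetyltransferase p300, and their transcripts were followed here in regulatory T cells (Treg) in which p300 had been deleted. The members are the genes Hdac1, Hdac2, Hdac3, Hdac5, Hdac6, Hdac7, Sirt1, Sirt2, Sirt3 and Sirt7. They were chosen by symbol and by no cut on their values, though earlier results of these data were known. They are read by 11 of the 20393 probe sets whose annotation gives 1 gene symbol, and make up 10 of the 12394 genes with such a probe set. All 10 genes passed the filter on dim genes, which left 8676 genes to test.

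The p300-deleted samples came from fl-p300/Foxp3cre mice, which carry a floxed p300 allele and a Cre recombinase driven from Foxp3, and the controls from mice with the genotype Foxp3cre, whose sample titles read WT. All mice were on the C57Bl/6 background, and no label gives their age. CD4+CD25+ cells were separated magnetically, total RNA was labelled with biotin, and 3 p300-deleted samples and 3 controls were each hybridised to 1 array. The labels call the samples independent without naming animals, so the p-values cover the spread among the arrays and some of it may be technical. Because Cre is driven from Foxp3, other CD4+CD25+ cells in the separated fraction would keep p300.

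Classical deacetylases use a zinc ion and fall into classes. Hdac1, Hdac2 and Hdac3 (class I) are nuclear and work as catalytic subunits of corepressor complexes. Hdac5 and Hdac7 (class IIa) shuttle between nucleus and cytoplasm and bind MEF2 transcription factors, and Hdac6 (class IIb) is mainly cytoplasmic. Sirtuins instead consume NAD and are found in the nucleus (Sirt1), the nucleolus (Sirt7), the cytoplasm (Sirt2) and the mitochondria (Sirt3). In Treg, p300 acetylates the transcription factor Foxp3, which protects it from degradation, while Sirt1 removes acetyl groups from Foxp3, and Hdac6 and Hdac7 have also been linked to it. p300 also acetylates some deacetylases themselves, and such changes of the proteins are not visible in RNA.

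Values below are the log2 values deposited by the authors, and differences are p300-deleted minus control on that scale. Array medians lay between 5.38 and 5.46. The annotation names 0 probe sets for Ep300, the gene of p300, so the deletion itself was not checked here. Of the T cell genes, Cd3e read 11.46 to 11.63 in p300-deleted arrays and 11.21 to 11.53 in controls, and Il2ra, the gene of CD25, read 9.09 to 9.17 in p300-deleted arrays and 8.62 to 9.07 in controls. Cd4 read 9.74 to 10.07 in p300-deleted arrays and 8.91 to 9.45 in controls, a difference of 0.68 (adjusted p = 0.0746 in limma). Foxp3, the defining gene of Treg, read 2.57, 3.04 and 3.15 in the p300-deleted arrays, below the dim limit of 3.91, against 9.63, 9.35 and 9.39 in controls. Where this probe set lies in the transcript, and how the Foxp3 allele of either group is built, is not stated in the labels. Markers of other cells differed too at an adjusted p under 0.05 in limma. In p300-deleted arrays 5 of 8 plasma cell, 6 of 8 mast cell and basophil and 1 of 7 NK cell markers tested were higher. Of 6 B cell markers 1, Spib, was lower. The NK cell marker that passed was Gzma, and the other NK cell markers ran from -1.12 for Gzmb to 1.46 for Ncr1. Of 10 myeloid markers tested 0 passed, with differences from 0.0064 for Csf3r to 2.59 for S100a8 (adjusted p = 0.101 for S100a8). All 11 cell cycle genes tested had negative differences, from -1.38 to -0.65, and 2 of them passed. Over all genes tested 1.72% passed in either direction. The part of these values in the results below was not tested. In such bulk samples fewer cells of a type and less RNA per cell cannot be told apart.

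No member gene passed the test for a change. In the limma fit of all genes 0 of 10 passed an adjusted p of 0.05 and 0 of 10 had an unadjusted p under 0.05, against 1.72% and 18.1% of all genes tested. The arrays of the groups overlapped for every member, and did not overlap for 23.7% of all genes tested. With only 10 members these counts cannot be set apart from the shares over all genes. Of all genes tested 3906 differences lay above and 4770 below 0. Differences of the members ran from -0.23 for Hdac6 to 0.19 for Hdac2, with 3 members above and 7 below 0. Their median was -0.05, beside -0.03 over all genes tested, and their median absolute difference was 0.10, beside 0.14. In the fit of single probe sets 0 of the 11 passed (0 at an unadjusted p under 0.05), where 0.382% of all probe sets did.

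**Figure D1:**
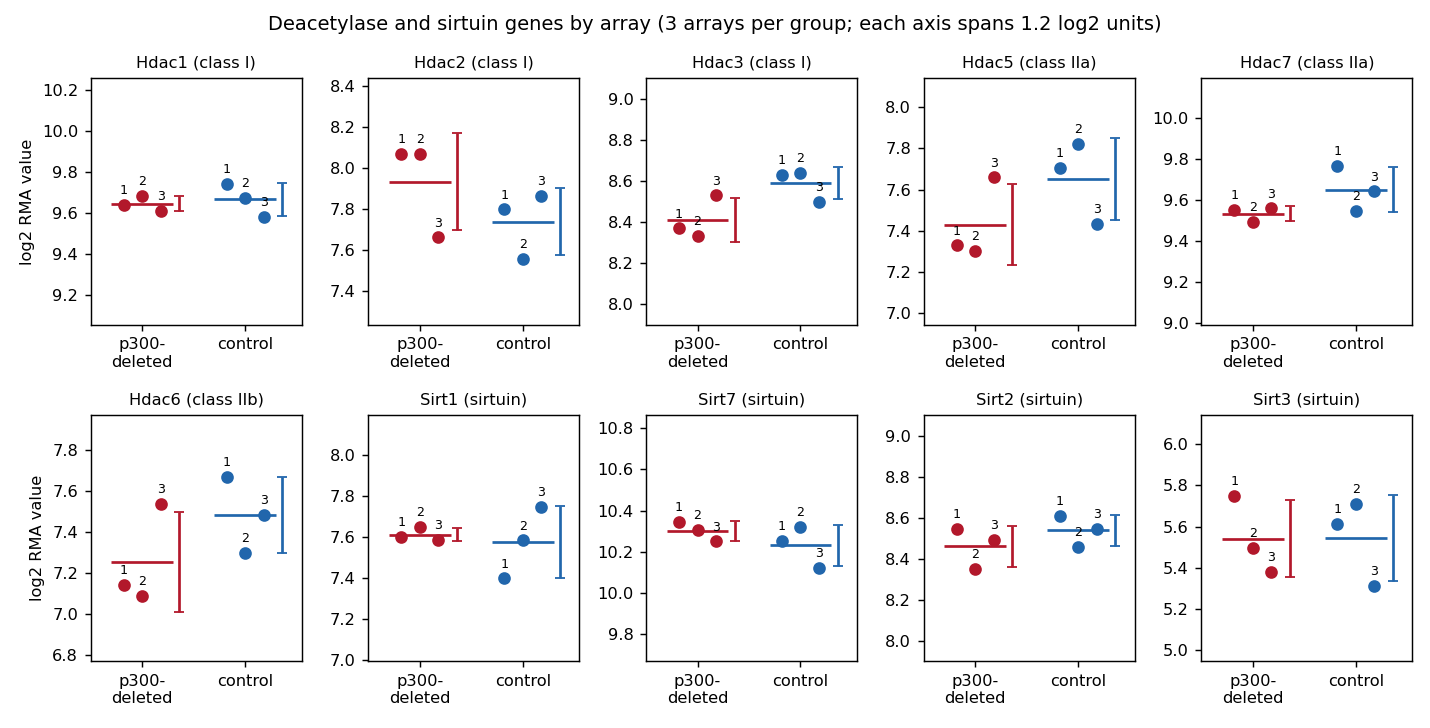
The log2 RMA value of each member gene on each array, with p300-deleted arrays at left and controls at right, numbered by replicate. Horizontal lines are group means and error bars 1 SD (n = 3). The groups overlap in every panel, and p300-deleted 3 lies apart from p300-deleted 1 and 2 for Hdac2, Hdac3, Hdac5 and Hdac6.

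Among class I enzymes, Hdac1, a catalytic subunit of the NuRD, Sin3 and CoREST complexes, read 9.64, 9.68 and 9.61 in the p300-deleted arrays, against 9.74, 9.67 and 9.58 in controls. The p300-deleted arrays lay within the range of the controls. The difference was -0.02 (SE 0.10, 95% interval -0.25 to 0.20, adjusted p = 0.937 in limma), which as a ratio is 0.985 (0.843 to 1.15).

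Hdac2, the paralogue that occupies the same complexes, read 8.07, 8.07 and 7.66 in the p300-deleted arrays, against 7.80, 7.56 and 7.86 in controls. Of the p300-deleted arrays, 1 and 2 lay above all controls and 3 lay among them. The difference of 0.19 (SE 0.15, 95% interval -0.14 to 0.53, adjusted p = 0.539) was smaller than the SD of 0.24 within the p300-deleted group.

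Hdac3, the catalytic subunit of the NCoR corepressor complex, read 8.37, 8.33 and 8.53 in the p300-deleted arrays, against 8.63, 8.64 and 8.499 in controls. Here p300-deleted 3 lay above control 3, and all other p300-deleted arrays lay below all controls. The difference was -0.18 (SE 0.11, 95% interval -0.42 to 0.06, adjusted p = 0.420), with the lowest adjusted p of the members. The type of its probe set is one that can bind several transcripts.

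For class IIa, Hdac5 read 7.33, 7.30 and 7.66 in the p300-deleted arrays, against 7.70, 7.82 and 7.43 in controls. Both groups had an SD of 0.20, and control 3 lay between the p300-deleted arrays. The difference was -0.22 (SE 0.14, 95% interval -0.55 to 0.11, adjusted p = 0.465).

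Hdac7, a class IIa enzyme known for its high expression in developing T cells, read 9.55, 9.49 and 9.56 in the p300-deleted arrays, against 9.76, 9.54 and 9.64 in controls by its brighter probe set. Only control 2 fell among the p300-deleted arrays. The difference was -0.12 (SE 0.10, 95% interval -0.35 to 0.12, adjusted p = 0.609). Its other probe set read 7.58, 7.35 and 7.39 in the p300-deleted arrays, against 7.83, 7.17 and 7.40 in controls, a difference of -0.03 (SE 0.17, adjusted p = 0.964 in the fit of probe sets). The difference was within the SDs of the dimmer probe set (0.13 in the p300-deleted group and 0.33 in controls), while that of the brighter one was larger than its SDs (0.04 in the p300-deleted group and 0.11 in controls).

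Hdac6, which deacetylates tubulin, cortactin and Hsp90 in the cytoplasm, had the largest absolute difference of the members. It read 7.14, 7.09 and 7.54 in the p300-deleted arrays, against 7.67, 7.30 and 7.48 in controls. As for Hdac5, p300-deleted 1 and 2 lay below all controls and p300-deleted 3 lay among them. The difference was -0.23 (SE 0.15, 95% interval -0.57 to 0.12, adjusted p = 0.481), a ratio of 0.854 (0.672 to 1.09). Of all genes tested, 29.5% had a larger absolute difference.

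Sirt1, the nuclear sirtuin that deacetylates p53 and Foxp3, read 7.60, 7.65 and 7.59 in the p300-deleted arrays, against 7.40, 7.58 and 7.75 in controls. The p300-deleted arrays were close together, with an SD of 0.03, inside the wider range of the controls (SD 0.17). The difference was 0.04 (SE 0.12, 95% interval -0.23 to 0.30, adjusted p = 0.912).

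Sirt7, a nucleolar sirtuin linked to transcription of ribosomal RNA genes, read 10.34, 10.30 and 10.25 in the p300-deleted arrays, against 10.25, 10.32 and 10.12 in controls. Sirt2, the mainly cytoplasmic sirtuin that shares tubulin as a substrate with Hdac6, read 8.54, 8.35 and 8.49 in the p300-deleted arrays, against 8.61, 8.46 and 8.55 in controls. Their arrays overlapped, with differences of 0.07 for Sirt7 (SE 0.10, adjusted p = 0.780) and -0.08 for Sirt2 (SE 0.10, adjusted p = 0.761). Sirt3, the main deacetylase of mitochondrial proteins, read 5.75, 5.50 and 5.38 in the p300-deleted arrays, against 5.61, 5.71 and 5.31 in controls. Its group means were both 5.54, with SDs of 0.19 in the p300-deleted group and 0.21 in controls, and its 95% interval was -0.33 to 0.33.

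**Figure D2:**
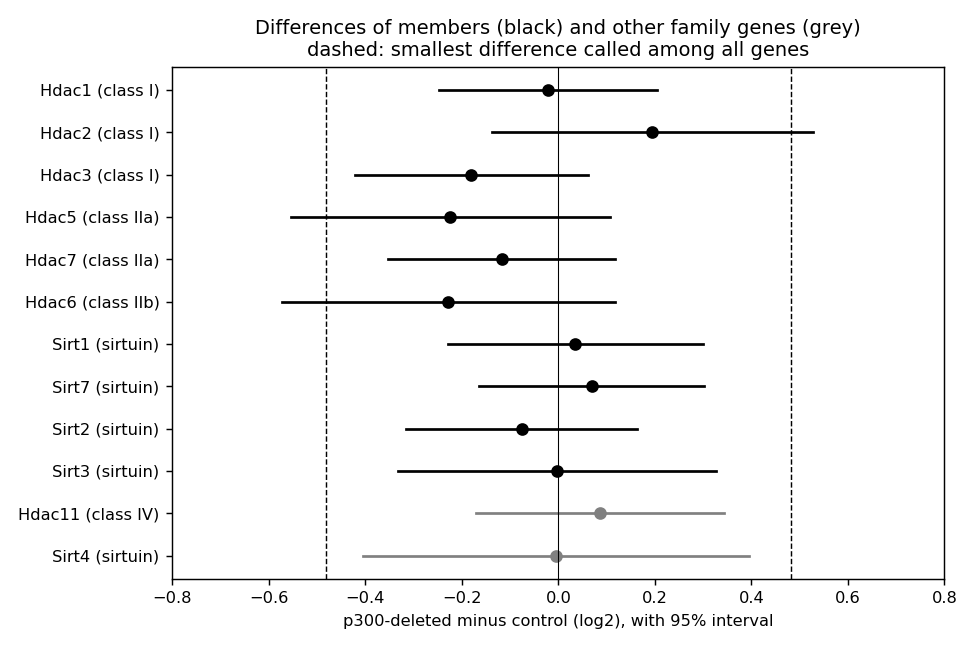
Differences between p300-deleted and control arrays on the log2 scale for the members (black) and for Hdac11 and Sirt4 (grey), with 95% intervals from limma and 3 arrays per group. Every interval includes 0. Dashed lines mark 0.48, the smallest absolute difference called among all genes, which the intervals of Hdac2, Hdac5 and Hdac6 reach beyond.

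How large a change the arrays would still allow can be read from the intervals. The smallest absolute difference among the 149 genes called was 0.48. For 7 of the 10 members the whole 95% interval lay inside that size, and for Hdac2, Hdac5 and Hdac6 it did not. Over all members the intervals ran from -0.57 to 0.53, ratios of 0.672 to 1.44. The median SE of the members was 0.11, beside 0.13 over all genes tested.

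The 4 members with the largest absolute differences, Hdac2, Hdac3, Hdac5 and Hdac6, moved with single arrays, as other members did. With single arrays left out Hdac3 ran from -0.24 to -0.14, while Sirt3 ran from -0.12 to 0.08. Without p300-deleted 3 the differences were 0.33 for Hdac2 (adjusted p = 0.311), -0.24 for Hdac3 (adjusted p = 0.398), -0.34 for Hdac5 (adjusted p = 0.336) and -0.37 for Hdac6 (adjusted p = 0.286). None passed the threshold then either. The difference of Hdac5 was also -0.33 (adjusted p = 0.204) without control 3. In the other direction, Hdac2 was at 0.10 and Hdac5 at -0.14 without control 2, and Hdac6 was at -0.14 without control 1 (adjusted p of 0.753, 0.665 and 0.752). Hdac2 was also at 0.13 without p300-deleted 1 or 2, and Hdac6 at -0.14 without p300-deleted 2.

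The level of 18S ribosomal RNA, averaged over its control probe sets, also differed between arrays. It was 7.74, 9.47 and 7.91 in the p300-deleted arrays, against 5.68, 6.03 and 8.69 in controls. On this measure p300-deleted 3 lay between p300-deleted 1 and 2. The part of 18S in the position of p300-deleted 3 was not tested. When 18S was added to the model Hdac2 was at 0.09, Hdac3 at -0.10, Hdac5 at -0.05 and Hdac6 at -0.16 (adjusted p of 0.889, 0.799, 0.925 and 0.787). The gap between the 3' and 5' control probes for Gapdh, which widens as RNA degrades, was 0.09, 0.14 and 0.06 in the p300-deleted arrays, against 0.23, 0.59 and 0.21 in controls. The same gap for actin was close in both groups. It was 0.36, 0.43 and 0.29 in the p300-deleted arrays, against 0.4, 0.46 and 0.3 in controls. With the Gapdh gap as a covariate Hdac2 was at 0.06, Hdac3 at -0.15, Hdac5 at -0.09 and Hdac6 at -0.44 (adjusted p of 0.905, 0.646, 0.853 and 0.290). The part of 18S or of these gaps in the differences was not tested further.

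**Figure D3:**
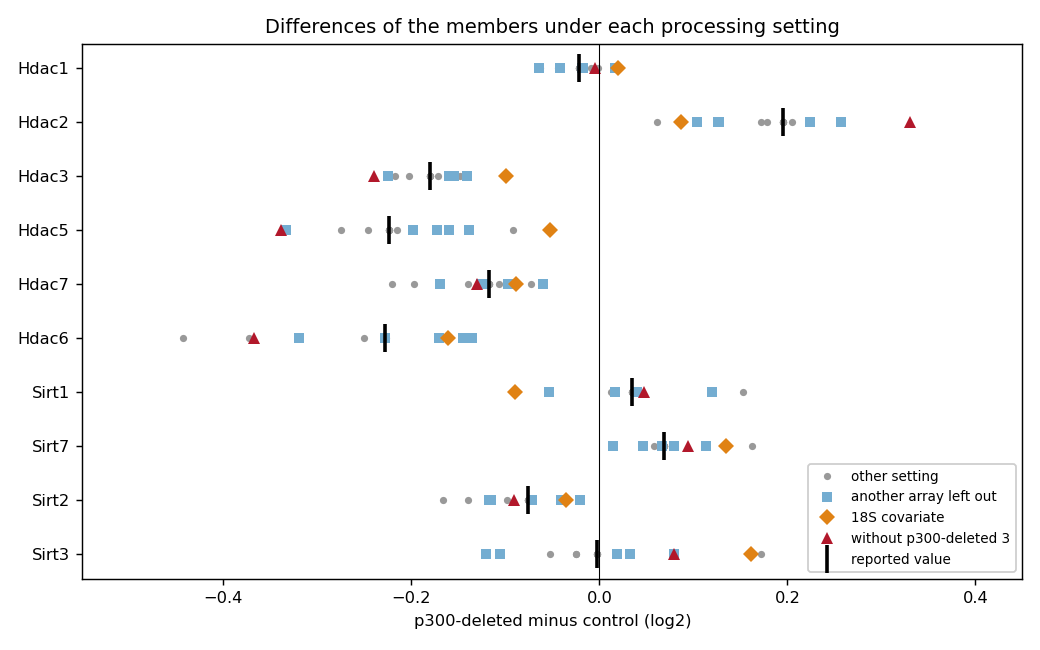
The difference of each member gene (p300-deleted minus control, log2) as reported and under each other processing setting, with arrays left out singly and covariates shown by symbol. Hdac2 stays above 0 and Hdac3, Hdac5, Hdac6, Hdac7 and Sirt2 stay below 0, while Hdac1, Sirt1 and Sirt3 fall on both sides.

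Of the 8 other genes of the family, 3 had a probe set of their own, and Hdac4, Hdac8, Hdac10, Sirt5 and Sirt6 are not analysed here. Hdac9, a class IIa enzyme linked to Foxp3 in Treg, read 2.89, 3.13 and 2.90 in the p300-deleted arrays, against 3.16, 2.96 and 3.15 in controls. These values lie below the dim limit in both groups, so Hdac9 was not tested among the genes. Hdac11, the class IV enzyme, was at 0.09 (SE 0.11, adjusted p = 0.746) by its brighter probe set. Its dimmer probe set read 4.24, 4.03 and 4.25 in the p300-deleted arrays, against 3.83, 4.003 and 3.76 in controls. These arrays did not overlap, but the difference of 0.31 (SE 0.12) did not pass in the fit of probe sets (adjusted p = 0.278). The mitochondrial sirtuin Sirt4 was at -0.0043 (SE 0.18, adjusted p = 0.993), with a control SD of 0.37.

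The partners of these enzymes mostly did not pass the test either. Of 116 listed subunits, partners, substrates and cofactor enzymes, 84 were tested, 1 rose and 0 fell in limma where 1.72% of all genes were called, and an unadjusted p under 0.05 was reached by 10 higher and 9 lower genes, which is 22.6% beside 18.1% of all genes. The same 18.1% stands behind the unadjusted counts of the single lists below, which hold few genes each. The arrays did not overlap for 20 of the 84, beside 23.7% of all genes. Their median was -0.07.

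The gene that rose was Ywhaz, which encodes a phosphoserine-binding adaptor of the protein family that holds phosphorylated class IIa deacetylases in the cytoplasm. It read 11.80, 11.67 and 11.77 in the p300-deleted arrays, against 10.99, 10.91 and 11.31 in controls. All p300-deleted arrays lay above all controls, and the difference was 0.67 (SE 0.13, adjusted p = 0.0458). Ywhaz passed under 6 of 16 alternatives. Its other probe sets disagreed, from -0.19 to 0.87, and the mean of all its probe sets, the one used included, was at 0.40 (adjusted p = 0.161). In the fit of probe sets 1 of the 7 passed, at 0.63 (adjusted p = 0.0445). Of 12 tested MEF2 factors and class IIa partners, 11 did not pass, and the list's median was -0.02.

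Of 8 tested kinases that phosphorylate class IIa deacetylases for export, 0 passed in limma (unadjusted p under 0.05 for 1 higher and 3 lower genes), with a median of -0.19. Sik1, a salt-inducible kinase, read 6.46, 6.47 and 5.88 in the p300-deleted arrays, against 5.45, 5.15 and 6.08 in controls, with control 3 above p300-deleted 3. Its difference was 0.71 (SE 0.25, adjusted p = 0.188). Camk2g, a calcium and calmodulin dependent kinase, was at -0.47 (SE 0.15, adjusted p = 0.156). A second probe set of Camk2g was at -0.19 with arrays that overlapped, and the mean of its probe sets at -0.33. Over the alternatives Camk2g ran from -0.60 to -0.23.

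Among the complexes that carry Hdac1 and Hdac2, 0 of 10 tested NuRD subunits, 0 of 8 Sin3 subunits and 0 of 7 CoREST subunits passed in limma. With no adjustment, genes with p under 0.05 were 1 higher and 1 lower for NuRD, 2 higher and 1 lower for Sin3 and 1 higher for CoREST. Their medians were 0.0016, 0.14 and 0.09. Sap30, a subunit of the Sin3 complex, read 6.62, 6.84 and 6.95 in the p300-deleted arrays, against 7.17, 7.41 and 7.31 in controls. All p300-deleted arrays lay below all controls, and the difference of -0.49 (SE 0.12, adjusted p = 0.0912) missed the threshold. Sin3a, the scaffold of the same complex, was at 0.40 (SE 0.12, adjusted p = 0.142) with arrays that did not overlap. The NuRD subunits Mta2 and Gatad2b were at 0.42 and -0.47 (adjusted p of 0.252 and 0.346), where Gatad2b was at -0.76 without control 1 and -0.24 without control 2, and the CoREST scaffolds Rcor3 and Rcor2 at 0.36 and -0.29 (adjusted p of 0.257 and 0.294). In the complex that carries Hdac3, 0 of 4 tested subunits passed in limma and 0 had an unadjusted p under 0.05. Coro2a was at -0.26 and Tbl1x at -0.20 (adjusted p of 0.368 and 0.375), and Coro2a was at -0.17 without p300-deleted 3. Other probe sets of Tbl1x were at 0.15 and -0.18, and the mean of all its probe sets at -0.08.

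A further list held substrates and partners of Hdac6 and Sirt2 and genes of tubulin. Of its 6 tested genes 0 passed in limma (unadjusted p under 0.05 for 1 higher and 2 lower genes), with a median of -0.24. Cttn, which encodes the actin-binding protein cortactin, was at 0.37 (SE 0.13, adjusted p = 0.188), and its other probe sets, with means below those of the probe set used, ranged from -0.22 to 0.85 (the highest with an adjusted p of 0.0680 in the fit of probe sets). Hsp90aa1, a cytosolic chaperone, was at -0.33 (SE 0.12, adjusted p = 0.198), and its other probe sets differed in sign, at 0.36 and -0.66, with a mean over all its probe sets of -0.21.

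Of the genes that make or use NAD, the cosubstrate of sirtuins, 7 were tested and 0 passed in limma (1 higher at an unadjusted p under 0.05), with a median of 0.04. Nampt, the rate-limiting enzyme of NAD salvage, read 7.04, 7.31 and 7.39 in the p300-deleted arrays, against 6.87, 6.79 and 6.96 in controls. Its arrays did not overlap, and the difference was 0.37 (SE 0.12, adjusted p = 0.170), with 0.35 (adjusted p = 0.169 in the fit of probe sets) by a dim second probe set. Nadk, which phosphorylates NAD, was at -0.23 (adjusted p = 0.333), and its dimmer probe set was at -0.04.

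All 5 tested regulators of Sirt1 had negative values, as 4770 of all 8676 genes tested did. The median of the 5 was -0.11, but 0 of them passed in limma, with 1 unadjusted p under 0.05. They included the corepressor Ctbp1 at -0.29 (adjusted p = 0.197) and the repressor Hic1 at -0.34 (adjusted p = 0.420). Hic1 was at -0.20 without control 2, -0.54 without control 3 and -0.03 with the 18S covariate. Of 11 mitochondrial Sirt3 substrates 0 passed in limma (unadjusted p under 0.05 for 1 higher and 1 lower gene), with a median of -0.12. The dehydrogenase Glud1 was at -0.34 (adjusted p = 0.151) and Acadl, an enzyme of fatty acid oxidation, at 0.27 (adjusted p = 0.218). A second probe set of Glud1 was at -0.07, and the mean of its probe sets at -0.21. For Acadl a dim second probe set was at 0.02, and the mean at 0.15. Of 6 acetyl-lysine readers 0 passed in limma and 0 had an unadjusted p under 0.05, with Brd3 at -0.28 and Brd8 at 0.22 (adjusted p of 0.445 and 0.581) and a median of -0.10. Brd3 was at -0.19 without p300-deleted 2, -0.45 without p300-deleted 3, -0.18 without control 2 and -0.09 by the mean of its probe sets, 1 of which was at 0.13. Brd8 was at 0.34 without control 1, 0.33 without control 3 and -0.0013 without control 2.

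**Figure D4:**
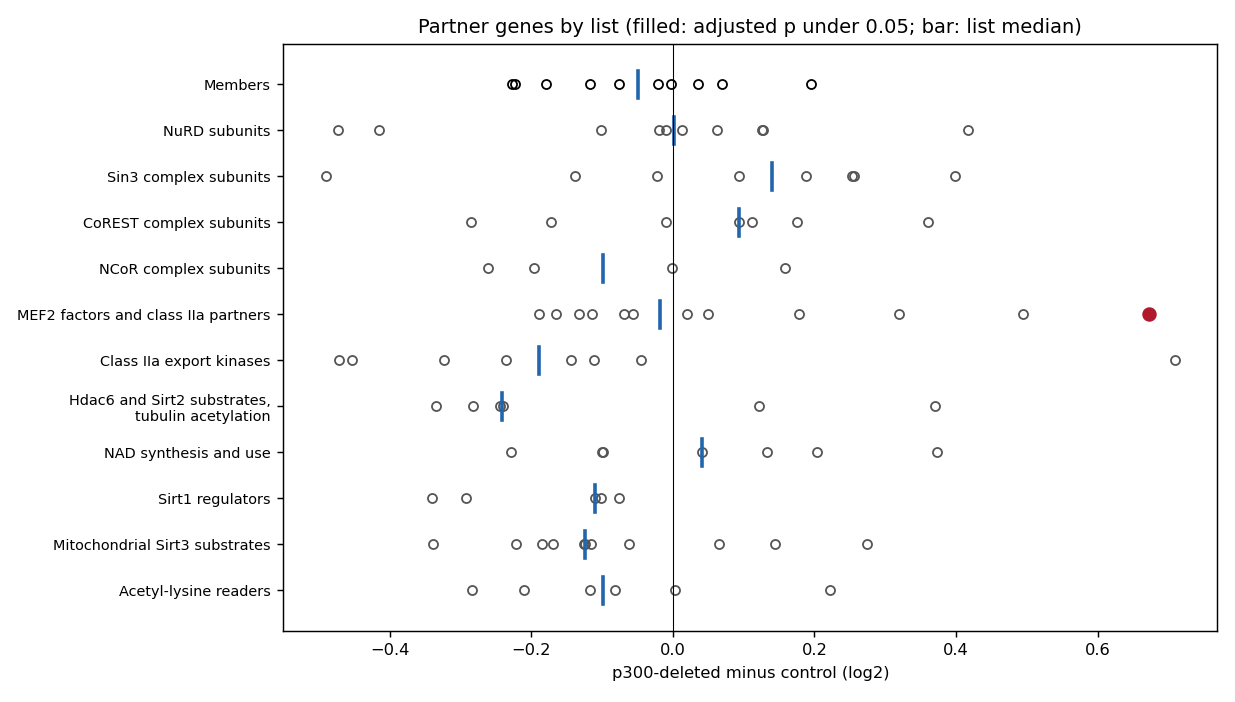
Differences between p300-deleted and control arrays (log2) for each tested gene of the members and of the 11 partner lists, 1 circle per gene, with a bar at the median of each list. The filled circle is Ywhaz, the only partner gene past an adjusted p of 0.05.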

How the data were processed

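The authors deposited 1 log2 value per probe set and array. Per the submitters' processing notes these come from RMA (version not stated), which corrects background, quantile-normalizes the arrays and summarises the probes of a set. Quantile normalization hides a change in total RNA per cell, and background compresses the differences of dim genes.

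The platform annotation gave 1 symbol for 20393 of 22690 probe sets. Gene IDs matched RefSeq (assembly GRCm38.p6) for 20364 of them, with 0 symbols updated. Each gene was read by its brightest probe set on average, and the 30% of genes with the lowest means were left out. Groups, taken from the sample titles, were compared in R 4.3.3 by two-sided moderated tests of limma 3.58.1 (lmFit, eBayes) without covariates, and p-values were adjusted over 8676 genes by Benjamini-Hochberg. All single-symbol probe sets were fitted in the same way with no filter. The fit was tested on simulated data with 200 changed genes per set. It recovered 35.7% of log2 changes of 0.5 and 96.5% of changes of 1, and 6.28% of calls were false.

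The members and lists were chosen with earlier results of these data known. All members and the other deacetylase genes with a probe set are named, and from each partner list up to 4 genes past the threshold, or else the 2 with the largest absolute difference. Alternatives were the dim filter, normalization, mean of probe sets, variance model, array weights, covariates, replicate block, threshold and leaving out each array. Further probe sets of Ywhaz, Camk2g, Nampt, Cttn, Hsp90aa1, Brd3, Glud1, Acadl, Nadk and Tbl1x were chosen after their values were seen. With 3 arrays per group, their number limits the precision.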

Additional observations from a re-analysis of the deposited data

How the results depend on the processing

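No member gene passed an adjusted p of 0.05 in limma in any of 159 refits over 16 alternatives, and 149 kept their sign. Part of that count was fixed in advance. The dim filters, the variance model and the replicate block leave the difference of a gene as it was. So does the mean of all probe sets for every member but Hdac7. In those refits the sign could not turn. Sirt3 could not be refitted with the dimmest 50% of genes left out. With array weights 4 of 10 members (Hdac3, Hdac5, Hdac6 and Hdac7) had an unadjusted p under 0.05, as 29.0% of all genes did, and the lowest adjusted p was 0.109 (Hdac6). So had 2 without p300-deleted 3 (Hdac2 and Hdac6, beside 15.5% of all genes), 1 without control 3 (Hdac5, beside 22.9%) and 1 with the Gapdh covariate (Hdac6, beside 16.8%), and 0 under the others. The sign turned for Hdac1 to 0.019 with the 18S covariate and 0.017 without control 1 (-0.064 to 0.017 over single arrays left out). For Sirt1 it turned to -0.090 with the 18S covariate and -0.054 without control 1 (-0.054 to 0.12). For Sirt3 it turned to 0.16 with the 18S and 0.17 with the Gapdh covariate, and to 0.019, 0.079, 0.032 and 0.080 without p300-deleted 2, p300-deleted 3, control 1 and control 2 (-0.12 to 0.080). Alternatives for the other named genes were run after seeing the data. Sirt4 turned to 0.031 with array weights, 0.21 with the 18S and 0.38 with the Gapdh covariate, and to 0.021, 0.0067 and 0.20 without p300-deleted 2, p300-deleted 3 and control 2 (-0.17 to 0.20), and Brd8 to -0.20 with the Gapdh covariate and -0.0013 without control 2 (-0.0013 to 0.34). Of the 21 named partner genes, 7 moved by over 1.5 times with the mean of all probe sets, 4 with array weights, 6 with the 18S and 10 with the Gapdh covariate, and 0 to 4 with single arrays left out. The number of genes changed, 149, was 95 with the mean of all probe sets, 1019 with array weights, 98 with the replicate block, 15 with the 18S and 48 with the Gapdh covariate, 399 at an adjusted p under 0.10, and 9 to 230 with single arrays left out (9 without control 1, 230 without control 3). The number of partner genes changed, 1, was 0 after a further quantile normalization, with the mean of all probe sets, the replicate block and either covariate, 11 with array weights, 2 at an adjusted p under 0.10, and 0 to 2 with single arrays left out. The cause of these moves was not tested. Deviations of same-numbered arrays from their group means correlated at -0.074, 0.123 and -0.12. With 3 arrays per group these values cannot decide whether the numbers pair the samples. With the replicate block 0 members passed. Dim signal limits Hdac9, which lay below the dim limit in both groups.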
